A study of Mus musculus with 9 samples.

Results

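Primary brown adipocytes carrying Setdb1 flox/flox and Rosa26Cre-ERT2 were compared after treatment with 4-hydroxytamoxifen (4-OHT, 1 µM) or with its ethanol vehicle (ETOH), with 1 RNA-seq library for each treatment. Cre-ERT2 is a recombinase fused to a ligand-binding domain that 4-OHT activates, and at Rosa26 it can be expressed in every cell type of a culture, not in adipocytes alone. Both libraries came from floxed cells with the Cre, and no library of 4-OHT treated cells without the Cre or with intact Setdb1 alleles was analysed here. Effects of 4-OHT, of active Cre and of Setdb1 loss therefore cannot be told apart. Genes were taken when they had at least 50 raw counts in 1 of the 2 libraries, which held for 13969 of the 26645 genes in the table. The study has 9 libraries in all. The others are 3 of brown adipocytes given a control siRNA (siNC, 1 library) or an siRNA against Setdb1 (siSetdb1, 2 libraries), and 4 of brown adipose tissue (BAT) from Setdb1 fl/fl mice without Cre (2 controls) or with Adipoq-Cre, which acts in adipocytes (2 Setdb1 AKO). The titles of all 4 BAT libraries carry the label TN_CE, which controls and Setdb1 AKO share. The time after treatment, the day of differentiation and the number of animals behind each culture are not given in the sources used here.

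SETDB1 is a methyltransferase that places methyl groups on lysine 9 of histone H3, which marks silent regions of the genome. Zinc finger proteins of the KRAB family bring it to DNA through the scaffold TRIM28, and its partner ATF7IP keeps it stable and in the nucleus. It is known for silencing endogenous retroviruses, germline genes and clustered genes in many cell types. Brown adipocytes burn fatty acids and glucose in mitochondria that are uncoupled by UCP1.

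With 1 library per treatment, a difference has no replicate check and no test was made. Where a fold is followed by a range in parentheses, the range is an exact 95% interval that covers counting error only. Total counts were 29911734 in ETOH and 30176359 in 4-OHT. Setdb1 itself had 1070 counts in ETOH and 620 in 4-OHT, 1.66-fold lower (1.51 to 1.84). Setdb1 was thus lower but still read in 4-OHT, and the counts do not separate the floxed part from the rest of the gene. Its exons overlap those of Cers2 on the opposite strand, and the strand setting of the counting is not given in the sources used here. The same doubt holds for other genes described below, whose exons overlap a gene on the opposite strand, among them Tnfrsf23 and Tnfrsf26 (E230032D23Rik), Eci2 (Gm16984), Acaa1b (Dlec1), Atf7ip (Gm44140), Tcfl5 (Col9a3), Ctcfl (Ctcflos), Mest (Copg2), Il1b (Il1bos) and Eln (Gm30003). Exon overlaps were read from the annotation GENCODE M21. There Elovl3 overlaps Pitx3 as well, but the deposited coordinates of Elovl3 and Pitx3 do not overlap.

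Both libraries held the defining genes of brown adipocytes. Per gene length, Ucp1 was at 175 FPKM in ETOH and 193 in 4-OHT, Cidea at 109 and 190, and Adipoq at 500 and 595. Both also held other cells. The macrophage genes Adgre1 (45.3 and 29.5 FPKM) and Csf1r (35.7 and 23.6) and the fibroblast genes Col1a1 (1408 and 1369) and Pdgfra (17.7 and 12.4) were read in each. Endothelial Pecam1 had 18 counts in ETOH and 11 in 4-OHT, the T cell gene Cd3e 1 and 2, and the muscle gene Ckm 6 and 4. Other endothelial genes were read, and 6 of 12 listed reached 50 counts, among them Egfl7 with 149 and 204. The 12 summed to 3150 counts in ETOH and 1834 in 4-OHT. Of the 6, 2 lay above 0 and 4 below, with a median log2 ratio of -0.65. Of 16 listed skeletal muscle genes 3 reached 50 counts. Sex-linked transcripts, which were chosen after their values were seen, showed RNA of both sexes in each library. Xist, which is transcribed from the inactive X chromosome of female cells, had 10697 counts in ETOH and 5777 in 4-OHT, 1.78-fold lower (1.73 to 1.84). The Y-linked genes went the other way, with Ddx3y at 2098 and 2674 counts, Eif2s3y at 1542 and 2179, Uty at 892 and 1169, and Kdm5d at 517 and 610. The balance of Xist and Y-linked reads thus differed between the libraries, and its part in the results below was not tested. The 432 measured genes of the X chromosome had a median log2 ratio of -0.02.

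Most genes had similar levels in the libraries. From the 25th to the 75th percentile, log2 ratios of 4-OHT over ETOH ran from -0.18 to 0.19, with a median of 0.01. They were taken on CPM, counts scaled to library size by TMM, with a prior count of 2. At least 2-fold higher in 4-OHT were 179 genes, or 1.28% of those measured, and at least 2-fold lower were 231, or 1.65%, which makes 410 genes or 2.94% either way. Of these, 34 genes were at least 4-fold higher and 14 at least 4-fold lower. The ratios widened as counts fell. Among genes with a mean under 100 counts, 3.82% were past 2-fold higher and 5.77% past 2-fold lower, against 1.08% and 1.20% of genes with a mean of 100 to 1000 counts. Of the higher genes 78 had fewer than 50 counts in ETOH, against 2.08% of all measured genes, and of the lower genes 115 had fewer than 50 in 4-OHT, against 3.6%. The counting interval lay wholly beyond 2-fold for 83 of the higher and 77 of the lower genes. Near the line, Reep6 (557 and 1076 counts) was counted as higher and Trim67 (351 and 678) was not, while Cpxm2 (539 and 258) was counted as lower and Col23a1 (112 and 53) was not.

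**Figure D1:**
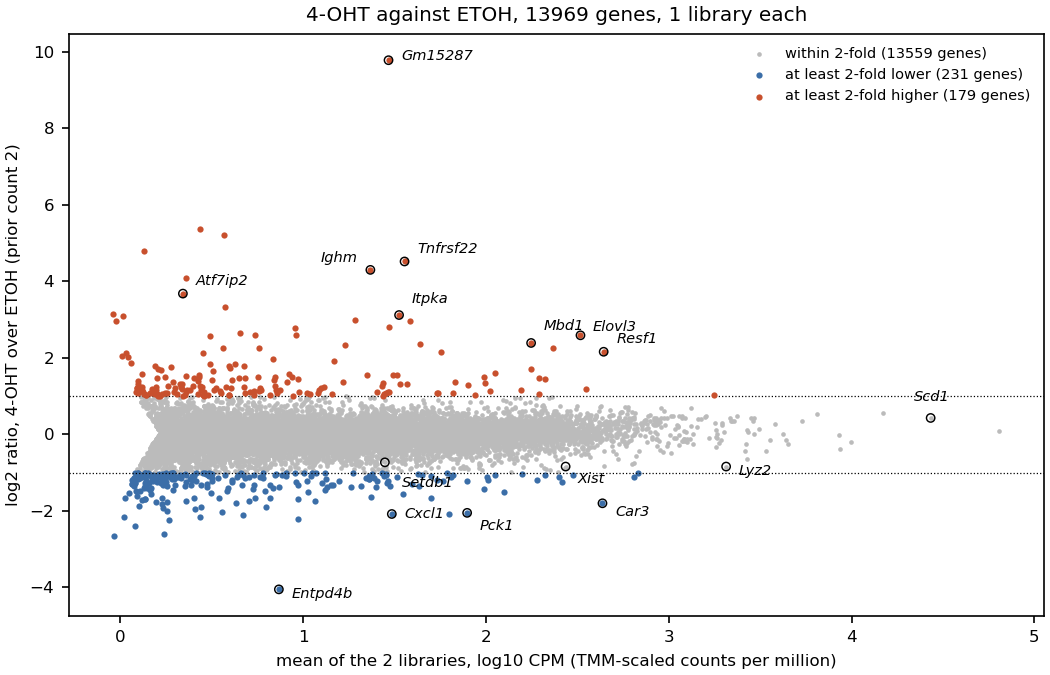
Log2 ratio of 4-OHT over ETOH (y axis, prior count 2) against the mean TMM-scaled CPM of the libraries (x axis, log10) for 13969 genes, with dotted lines at 2-fold. The 179 higher genes (orange) reach larger ratios at high counts than the 231 lower genes (blue), as with Elovl3, Resf1 and Mbd1, and Setdb1 lies within 2-fold.

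Among protein-coding genes, the highest ratio belonged to a cluster of decoy receptors on chromosome 7. Tnfrsf22, Tnfrsf23 and Tnfrsf26 encode receptors of the tumour necrosis factor receptor family, of which TNFRSF22 and TNFRSF23 bind the ligand TRAIL without a death domain. They lie within 78.2 kb (chr7:143607659-143685872, GRCm38). Tnfrsf22 had 90 counts in ETOH and 2029 in 4-OHT, 23.4-fold higher (18.9 to 29.2). Tnfrsf23 had 267 and 2016 counts, 7.83-fold higher (6.89 to 8.93), and Tnfrsf26 had 78 and 467, 6.21-fold higher (4.88 to 8.0). Tnfrsf22 shares 38.3% and Tnfrsf23 26.7% of their 31-base words with other annotated genes, so reads could be split between copies.

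Genes of the SETDB1 machinery itself were the next group. Of 34 listed partners and heterochromatin genes, all measured, 4 were at least 2-fold higher and 0 were 2-fold lower, with a median log2 ratio of 0.04. Of all measured genes 1.28% were higher. These 4 were Atf7ip2, Mbd1, Resf1 and Atf7ip. Atf7ip, the SETDB1 partner, had 1562 counts in ETOH and 4253 in 4-OHT, 2.83-fold higher (2.67 to 3.00). Its relative Atf7ip2 had 8 and 122 counts, 15.8-fold higher (7.78 to 37.5), and passed the filter only through 4-OHT. The other 33 genes of the list had 50 counts in both libraries. Resf1, which encodes a factor that silences retroelements together with SETDB1, had 4929 and 21230 counts, 4.47-fold higher (4.33 to 4.61). Mbd1, which encodes a reader of methylated CpG that binds SETDB1, had 1734 and 8746, 5.23-fold higher (4.97 to 5.51). The scaffold Trim28 had 3118 and 2645 counts, the related methyltransferase Ehmt2 3716 and 3429, and Setdb2 297 and 274. The difference was thus held by these 4 members, while the list as a whole lay near the median of all genes.

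Lipid enzymes were among the higher genes with the most counts. Elovl3, which elongates very long chain fatty acids in brown fat, had 2872 counts in ETOH and 16633 in 4-OHT, 6.01-fold higher (5.78 to 6.25), and was at 67.8 and 403 FPKM. Eci2, an isomerase for unsaturated fatty acids, had 2548 and 7991 counts, 3.25-fold higher (3.11 to 3.40). Scd2, a stearoyl-CoA desaturase, had 35391 and 70168, 2.06-fold higher (2.03 to 2.08). Acaa1b, a peroxisomal thiolase, had 2927 and 6319, 2.24-fold higher (2.14 to 2.34), and 40.0% of its 31-base words are shared with other genes. Cyp2b10, a cytochrome P450 best known from liver, had 19 and 203 counts, 11.1-fold higher (6.92 to 18.8). Lipg, which encodes endothelial lipase, had 59 and 282, 4.96-fold higher (3.73 to 6.68).

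Other genes with large ratios have varied known roles. Itpka, an inositol trisphosphate kinase, had 210 counts in ETOH and 1772 in 4-OHT, 8.76-fold higher (7.58 to 10.1). Ermp1, a metalloprotease of the endoplasmic reticulum, had 2462 and 11380, 4.80-fold higher (4.59 to 5.01). Tubb3, a tubulin best known from neurons, had 436 and 2145, 5.10-fold higher (4.60 to 5.67). Itih4, a secreted acute phase protein, had 630 and 2724, 4.49-fold higher (4.11 to 4.90). Mlf1 had 46 and 278 counts, 6.27-fold higher (4.58 to 8.76). Fam57b had 130 and 1002 counts, but its exons overlap those of Aldoa on the opposite strand. Without a known strand setting, reads of Fam57b and Aldoa cannot be told apart. Pitx3 had 68 and 466 counts, and its exons overlap those of Elovl3 on the opposite strand in GENCODE M21. In the deposited coordinates Elovl3 ends at 46135307 and Pitx3 spans 46135685 to 46148326, without overlap. Whether Elovl3 and Pitx3 share reads was not tested. Serpina10 had 4 and 50 counts and rests on few reads.

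**Figure D2:**
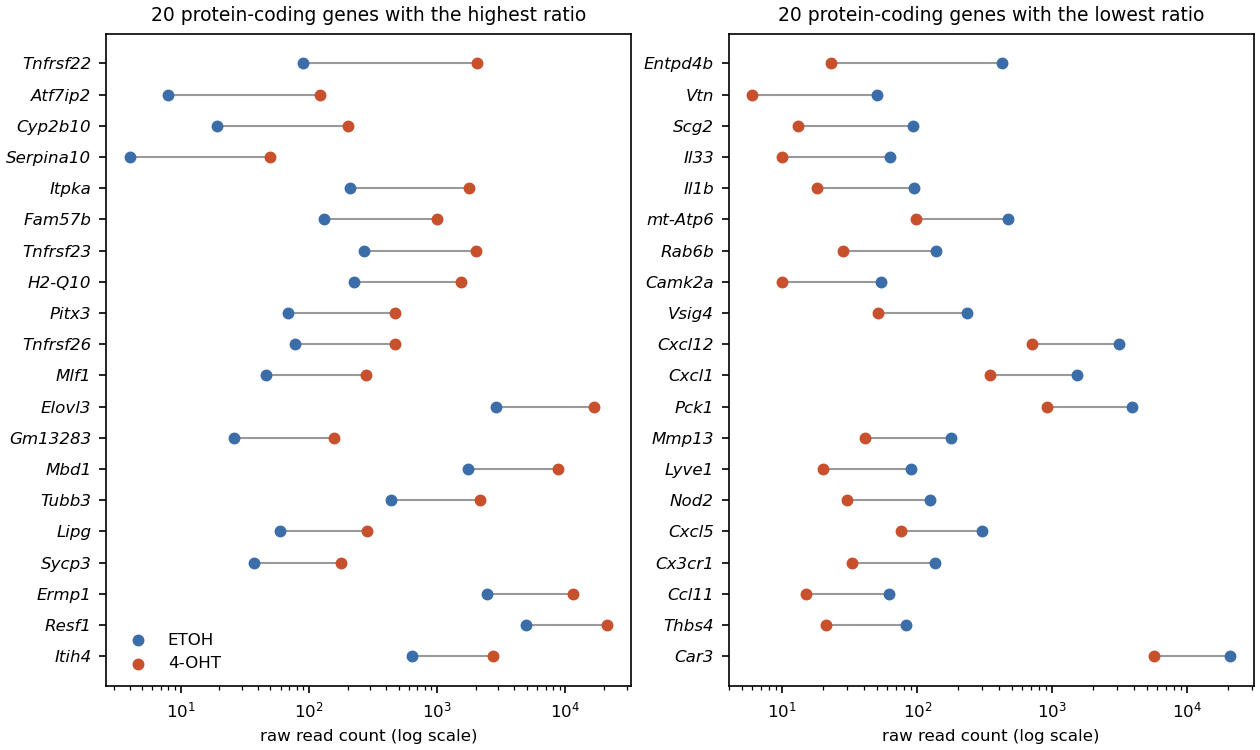
Raw read counts (x axis, log scale) in ETOH (blue) and 4-OHT (orange) for the 20 protein-coding genes with the highest and the 20 with the lowest ratio, 1 library each. Resf1, Elovl3, Ermp1 and Mbd1 have between 8746 and 21230 counts in 4-OHT, while 8 of the 20 lower genes have fewer than 100 counts in ETOH.

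The 4 largest ratios of all belonged to transcripts annotated outside protein-coding genes. Gm15287, annotated as antisense on chromosome 13 (chr13:111725517-111735124), had 0 counts in ETOH and 1729 in 4-OHT, 598-fold higher when ETOH is set at the floor of 3 counts. The lower limit of its exact counting interval was 486, and 36.9% of its 31-base words occur in other genes. The long noncoding RNA 9130204K15Rik had 2 and 158 counts, a ratio of 82.0 with a counting interval of 22.3 to 683. Gm14267 had 4 and 213 counts, 55.3-fold higher (21.3 to 205). The pseudogene Gm13284 had 1 and 79 counts, a ratio of 82.0 with a counting interval of 14.3 to 3278, and shares 79.9% of its words. Ighm, the constant region of the immunoglobulin mu heavy chain, had 67 and 1311 counts, 20.3-fold higher (15.9 to 26.4). Ighm was the only one of 15 listed lymphocyte markers that reached 50 counts, and the B cell gene Cd79a had 3 and 10 counts. Gt(ROSA)26Sor, the transcript of the locus that carries the Cre in these cells, had 6 and 129 counts, 22.3-fold higher (9.97 to 61.9), and overlaps exons of Thumpd3 on the opposite strand.

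Few germline genes were read in these cells. Of 51 listed genes of germ cells and meiosis, 10 reached 50 counts in a library, 5 of them at least 2-fold higher and 0 lower, against 1.28% of all measured genes higher. Sycp3, Tex15 and Ctcfl passed the filter only through the 4-OHT library, so nothing is read from this count. Of the 7 with 50 counts in both libraries, 2 were higher, Tcfl5 and Stag3. Sycp3, a protein of the axis of meiotic chromosomes, had 37 counts in ETOH and 178 in 4-OHT, 4.99-fold higher (3.49 to 7.32), and its exons overlap those of Chpt1 on the opposite strand. Tcfl5, a transcription factor of spermatocytes, had 282 and 707, 2.60-fold higher (2.26 to 3.00). The meiotic cohesin Stag3 had 86 and 198 counts, Tex15 had 32 and 83, and Ctcfl, the testis relative of CTCF, had 27 and 77. Brdt (56 and 73 counts), Zcwpw1 (63 and 82) and Tdrkh (259 and 242) stayed within 2-fold.

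Class I antigen presentation genes held 3 higher members of 19 measured and 0 lower, with a median log2 ratio of 0.22. Of all measured genes 1.28% were higher. H2-Q10, a secreted class I molecule, had 223 counts in ETOH and 1525 in 4-OHT, 7.10-fold higher (6.16 to 8.20). The nonclassical genes H2-T22 (182 and 383 counts) and H2-T23 (141 and 289) were also past 2-fold, and lie side by side. The classical genes H2-K1 (3827 and 5613) and H2-D1 (2722 and 4276) were within 2-fold, as was B2m (4585 and 5298). H2-Q10 shares 30.3% and H2-T22 51.0% of their 31-base words with other genes. Interferon-stimulated genes lay around 0, with 1 of 31 higher, 0 lower and a median of 0.01. The 1 gene was Isg15, with 44 and 93 counts, which passed the filter only through 4-OHT, while Ifit1 had 187 and 141. The sensors of nucleic acids had 0 of 17 members past 2-fold in either direction.

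Of 317 measured zinc finger genes named Zfp, 6 were at least 2-fold higher and 0 lower, with a median log2 ratio of 0.10, and 1.28% of all measured genes were higher. The 6 were Zfp934, Zfp493, Zfp873, Zfp78, Zfp612 and Zfp882, all with fewer than 100 counts in ETOH. Of these, Zfp934, Zfp493, Zfp612 and Zfp882 passed the filter only through 4-OHT, and Zfp934 shares 43.8% of its words with other genes. Zfp873 had 61 and 134 counts, 2.28-fold higher (1.67 to 3.14). Imprinted genes, which are expressed from 1 parental allele, held 1 higher and 3 lower members of 32, against 1.28% and 1.65% of all measured genes. H19, a growth-limiting noncoding RNA, had 10533 counts in ETOH and 4698 in 4-OHT, 2.16-fold lower (2.09 to 2.24). Mest had 597 and 220 counts and Zim1 953 and 433, while Zdbf2 had 60 and 119 and was higher. Peg3 (4542 and 3510), Grb10 (11312 and 9552) and Meg3 (5270 and 3899) stayed within 2-fold.

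The adipocyte and mitochondrial lists shifted together by a small amount toward 4-OHT. Of 50 nuclear genes of the respiratory chain and ATP synthase, 49 had a log2 ratio above 0, with a median of 0.28 and 0 past 2-fold. Fatty acid oxidation had 26 of 29 above 0 and a median of 0.39, with Eci2 and Acaa1b past 2-fold. De novo lipogenesis had 22 of 24 above 0 and a median of 0.36, with Scd2 past 2-fold. In this group the fatty acid synthase Fasn had 161916 and 225707 counts and Acly, which makes cytosolic acetyl-CoA, 19960 and 27316. General adipocyte genes had 33 of 38 above 0 and a median of 0.35. The lipid droplet coat genes Plin1 (17006 and 21812 counts) and Cidec (15329 and 22175) and the lipase Pnpla2 (40771 and 53701) were within 2-fold. Of all measured genes, 7217 lay above 0 and 6752 below, and 1.28% were past 2-fold higher.

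Most genes of the brown fat list also lay above 0, and all but Elovl3 stayed within 2-fold. Of 33 measured, 24 were above 0, 1 was past 2-fold higher and 0 lower, and the median log2 ratio was 0.27. Ucp1 had 8133 counts in ETOH and 8735 in 4-OHT, 1.11-fold higher (1.08 to 1.15). Cidea, a lipid droplet protein, had 3602 and 6118, 1.76-fold higher (1.69 to 1.84). The coactivator Ppargc1a had 662 and 923, Prdm16, a regulator of brown fat identity, 600 and 716, and the receptor Adrb3 1387 and 1159. Dio2, which activates thyroid hormone, had 243 and 217. Lep, the leptin gene, was past 2-fold at 43 and 95 counts. Pck1, which makes phosphoenolpyruvate for glycerol synthesis, ran against the other adipocyte genes, with 3890 and 905 counts, 4.14-fold lower (3.85 to 4.46). Car3, a carbonic anhydrase abundant in adipocytes, had 20634 and 5705, 3.49-fold lower (3.39 to 3.59).

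**Figure D3:**
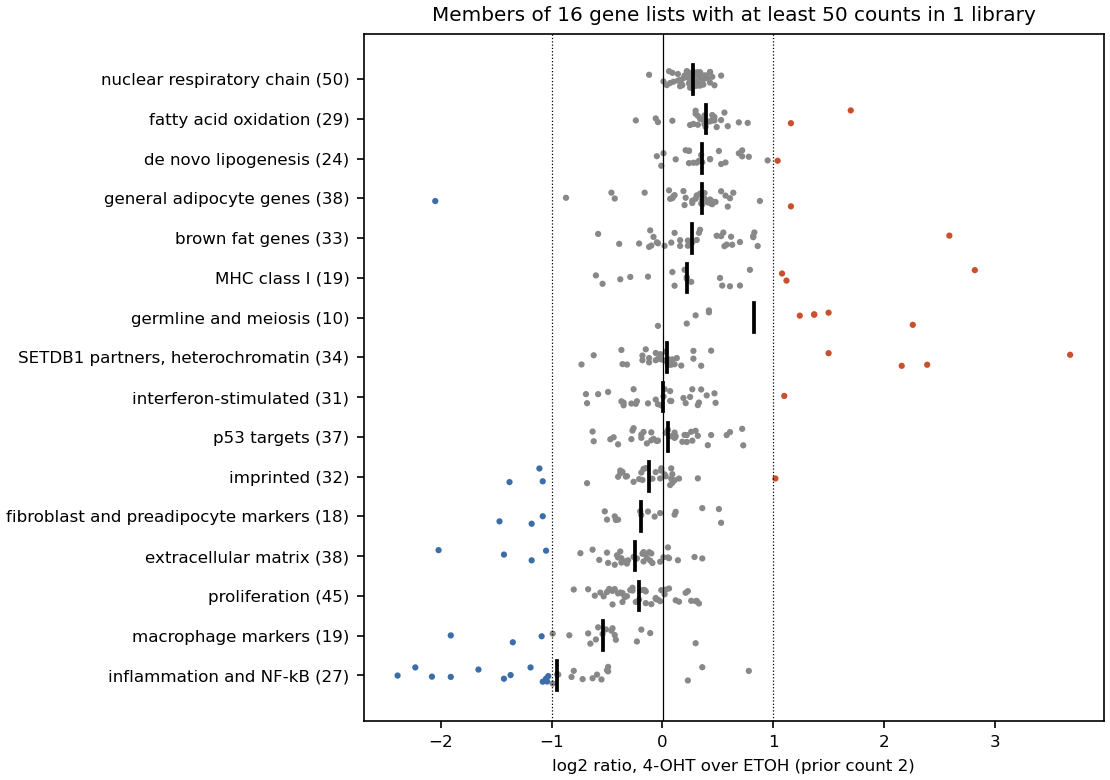
Log2 ratio of 4-OHT over ETOH (x axis, prior count 2) for the members of 16 gene lists with at least 50 counts in 1 library, the number measured in parentheses. Points are genes (orange and blue past 2-fold), short bars are list medians, and the solid line is the median of all genes. Inflammation genes spread far to the left around a median of -0.95, while nuclear respiratory genes lie close around 0.28. Germline genes entered in part through the 4-OHT library alone, and Il1b and Il33 of the inflammation list through ETOH alone.

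Of the 46 lists, inflammation held the most lower genes. Of 27 measured genes of inflammation and NF-kB signalling, 12 were at least 2-fold lower in 4-OHT and 0 higher, against 1.65% of all measured genes lower. Of the 27, 24 were below 0, and the median log2 ratio was -0.95. Cxcl1, a chemokine that draws neutrophils, had 1513 counts in ETOH and 344 in 4-OHT, 4.24-fold lower (3.77 to 4.78). Its neighbour Cxcl2 had 2337 and 712, 3.16-fold lower (2.91 to 3.45), and Ccl2, which draws monocytes, had 8062 and 3399, 2.29-fold lower (2.20 to 2.38). The cytokine Il6 had 811 and 301 counts, 2.60-fold lower (2.27 to 2.97), and Tnf had 1164 and 543. The NF-kB feedback inhibitor Tnfaip3 had 4378 and 1563 counts, a log2 ratio of -1.43. Il1b (95 and 18) and Il33 (63 and 10) had larger ratios on few counts. They are among the 12 but passed the filter only through ETOH, and 25 of the 27 had 50 counts in both libraries. Hp (61018 and 75363), Lcn2 (107 and 179) and Ptgs2 (943 and 1069) lay above 0. Cxcl12, a chemokine of stromal cells outside this list, had 3096 and 703, 4.25-fold lower (3.91 to 4.61).

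Macrophage markers were lower beside these genes. Of 20 listed, 19 were measured, 18 of them below 0 and 3 at least 2-fold lower, with a median log2 ratio of -0.54. Of all measured genes 1.65% were lower. Their summed level was 3807 CPM in ETOH and 2246 in 4-OHT, 1.69-fold lower, and most of it came from Lyz2, with 80947 and 43473 counts. Cd163, a scavenger receptor of resident macrophages, had 1893 and 716 counts, 2.55-fold lower (2.34 to 2.78), Cd14 had 2094 and 949, and Cx3cr1 had 134 and 33. Of these 3, Cx3cr1 passed the filter only through ETOH. Cd68 (1064 and 874), Trem2 (803 and 678) and Mertk (643 and 574) were lower by less. In such libraries, fewer macrophages and less RNA per macrophage cannot be told apart. The part of macrophages in the lower inflammatory genes was not tested. Vsig4 (235 and 51 counts), Lyve1 (90 and 20), Nod2 (125 and 30) and Clec7a (118 and 35), which are also known from macrophages, were named for their low ratios, so their direction was fixed by that choice.

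**Figure D4:**
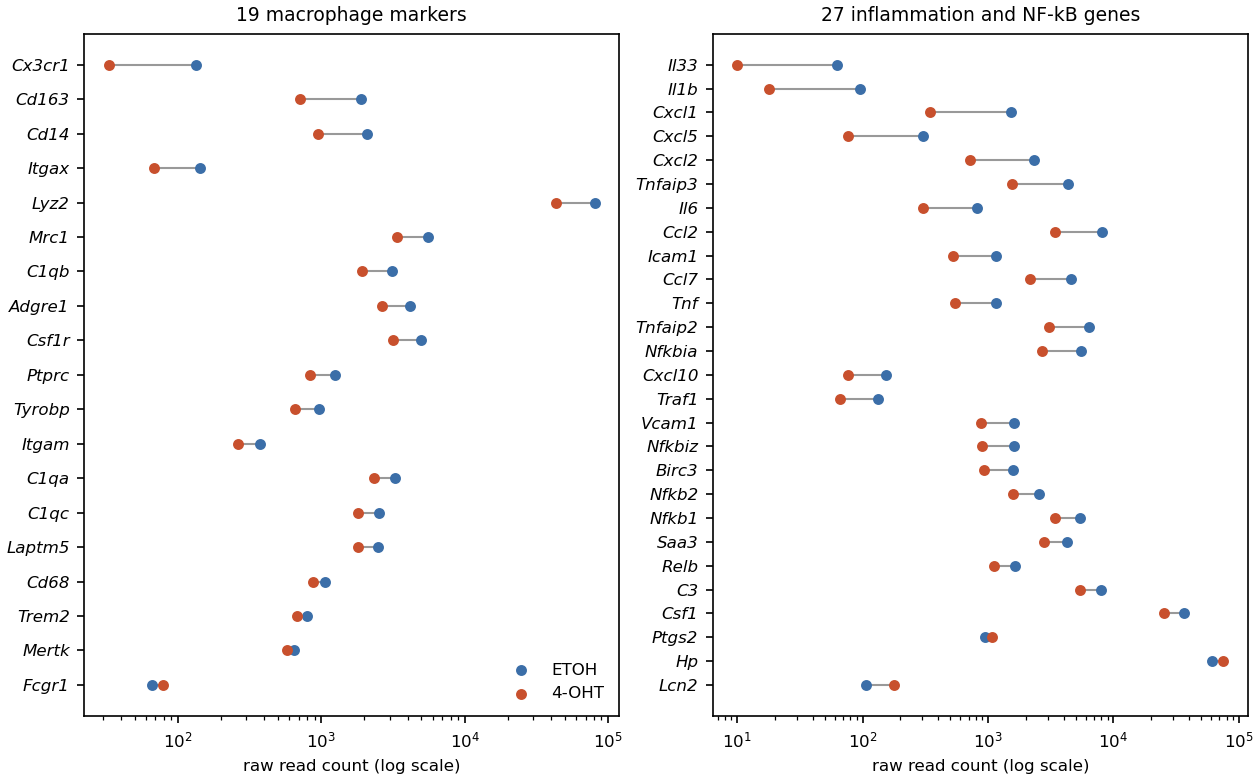
Raw read counts (x axis, log scale) in ETOH (blue) and 4-OHT (orange), 1 library each, for the 19 measured macrophage markers and the 27 measured genes of inflammation and NF-kB signalling, ordered by ratio. In all but Fcgr1 on the left, and Ptgs2, Hp and Lcn2 on the right, the 4-OHT count is the lower one.

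Matrix and stromal genes were lower by less. Of 38 extracellular matrix genes 31 were below 0, 4 were at least 2-fold lower and 0 higher, with a median log2 ratio of -0.25. Of all measured genes 1.65% were lower. Eln, which encodes elastin, had 8643 counts in ETOH and 4036 in 4-OHT, 2.06-fold lower (1.99 to 2.14). Dcn, a small proteoglycan, had 2299 and 979, 2.26-fold lower (2.10 to 2.44). Mmp13, a collagenase, had 179 and 41 and passed the filter only through ETOH. The main fibrillar collagens were near 0, with Col1a1 at 261796 and 248082 counts. Fibroblast and preadipocyte markers had 3 of 18 lower, against the same 1.65%, and a median of -0.19, and Pdgfra had 5013 and 3425. Among the genes with the largest CPM losses were Thbs1 (297067 and 220566 counts), Lyz2 and Fn1 (100063 and 62296), each within 2-fold. Sfrp1, a secreted Wnt antagonist, had 27049 and 12190 counts, 2.14-fold lower (2.09 to 2.19). Proliferation genes had 0 of 45 past 2-fold and a median of -0.21, and p53 targets 0 of 37 and 0.05.

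Some of the lowest ratios belong to genes whose reads may come from copies. Entpd4b had 427 counts in ETOH and 23 in 4-OHT, 17.9-fold lower (11.8 to 28.5), and 100% of its 31-base words occur in other annotated genes. The mitochondrial gene mt-Atp6 had 472 and 97 counts and shares 99.5% of its words, while its neighbour mt-Co3 had 1581 and 1502. Gapdh had 1090 and 337 counts with 27.2% shared. Of the other 13 mitochondrially encoded genes measured 12 were above 0, with mt-Co1, which shares 63.9% of its words, at 368031 and 517678 counts. The pseudogenes Gm10241 (84 and 20 counts), Gm8430 (254 and 76) and Gm4149 (50 and 14) were lower, with 100%, 93.0% and 100% of words shared. Among ribosomal protein genes, 4 of 79 were at least 2-fold higher, against 1.28% of all measured genes. These were Rps27a (1679 and 4960), Rpl39l (114 and 300), Rps4l (1154 and 2902) and Rps18 (1416 and 3358), while the list had a median of -0.01. Rps4l and Rps18 share 26.0% and 22.4% of their words with other genes, and Rps27a slightly less.

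Part of the genes past 2-fold in the same direction lay next to each other. Runs of 2 or more adjacent measured genes numbered 20 among the 179 higher genes, with 41 genes, and 19 among the 231 lower, with 43. Of all measured genes 1.28% were higher and 1.65% lower. How many runs such shares give without regard to position was not computed, so these counts only describe. Impa2 with B430212C06Rik and Ctcfl with Ctcflos overlap in exons on opposite strands. With the strand setting not given, the same reads can count for both genes of such a pair. Beside the Tnfrsf cluster, the higher runs held Rpl39l with Atf7ip2 on chromosome 16, and Elovl3 with Pitx3 within 16.4 kb on chromosome 19. Mbd1 stood with Myo5b, which encodes a myosin motor and had 347 and 981 counts, and Cfap53 between them had 26 and 16 counts and did not reach the filter. Other higher pairs were Gm13283 with Gm13284, Ctcfl with its antisense transcript Ctcflos (171 and 837 counts), Crlf2 (508 and 1430) with Gm8493, and the lactate and hydroxybutyrate receptors Hcar1 (285 and 571) and Hcar2 (178 and 346). Some of the lower runs held gene families of the immune system, while others were pairs such as Kcne4 with Scg2 and Gm12123 with Gm12122. Genes below the filter were skipped, so the members of a run can lie far apart, up to 2144.3 kb for Gm44126 with Reg1. Ccl2, Ccl7 (4599 and 2143) and Ccl11 (62 and 15) lay on chromosome 11, Cxcl3 (77 and 30), Cxcl1 and Cxcl2 on chromosome 5, the formyl peptide receptors Fpr1 (633 and 245) and Fpr2 (130 and 50) on chromosome 17, and Mmp13 with Mmp12 (981 and 460) on chromosome 9. The transporters Abca8a (1029 and 450), Abca9 (965 and 415) and Abca6 (94 and 43) formed another.

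The other experiments share no library with these cells, so the genes were followed there. A gene was counted as the same way when all libraries with reduced Setdb1 lay on that side of all controls and the means differed at least 1.5-fold, on the authors' normalised counts with a pseudocount of 1. Of the 179 higher genes, 148 were measured in the siRNA cells and 38 were higher in both siSetdb1 libraries, or 25.7%, against 3.15% of all genes measured in both. In BAT 141 were measured and 65 were higher, or 46.1%, against 8.02%. On the opposite side, 10 of the 148 were lower in both siSetdb1 libraries, or 6.76%, against 2.45% of all genes. In BAT 8 of the 141 were lower, or 5.67%, against 8.42%. The 38 are 9.41% of the 404 genes higher in siSetdb1, and the 65 are 6.49% of the 1001 higher in Setdb1 AKO. All 3 experiments shared 20 higher genes, among them Tnfrsf22, Tnfrsf23, H2-Q10, Elovl3, Sycp3, Resf1, Atf7ip, Ctcfl, Stag3 and Gm14267. Of the 179, 78 passed the filter only through 4-OHT, with Sycp3, Ctcfl and Gm14267 among them. The shares include these genes, and the background was not matched for low counts.

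Each experiment was scaled on its own, so the values are set side by side and compared only within it. Tnfrsf22 had 69.1 normalised counts in siNC and 161 and 254 in siSetdb1, and 34.9 and 36.5 in control BAT against 450 and 854 in Setdb1 AKO. Resf1 had 443 against 979 and 1088 in cells, and 1000 and 1469 against 12727 and 12933 in BAT, so that groups did not overlap in either. Elovl3 had 35.5 against 97.3 and 208 in cells, and 259 and 327 against 5300 and 6004 in BAT. Mbd1 was high in BAT, with 1831 and 1629 against 15729 and 16285, but had 610 against 616 and 660 in siRNA cells. Mlf1 did likewise, with 11.9 and 12.2 against 468 and 408 in BAT and 80.9 against 82.1 and 61.1 in cells. Ighm had 842 against 1392 and 1075 in cells, and 56.0 and 46.7 against 5384 and 9086 in BAT. Gm15287 had 1 or fewer in each siRNA library and in control BAT, and 6405 and 7733 in Setdb1 AKO. Tubb3, Lipg and Itpka were not past this rule in BAT, with Itpka at 302 and 302 in controls and 292 and 1292 in Setdb1 AKO.

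**Figure D5:**
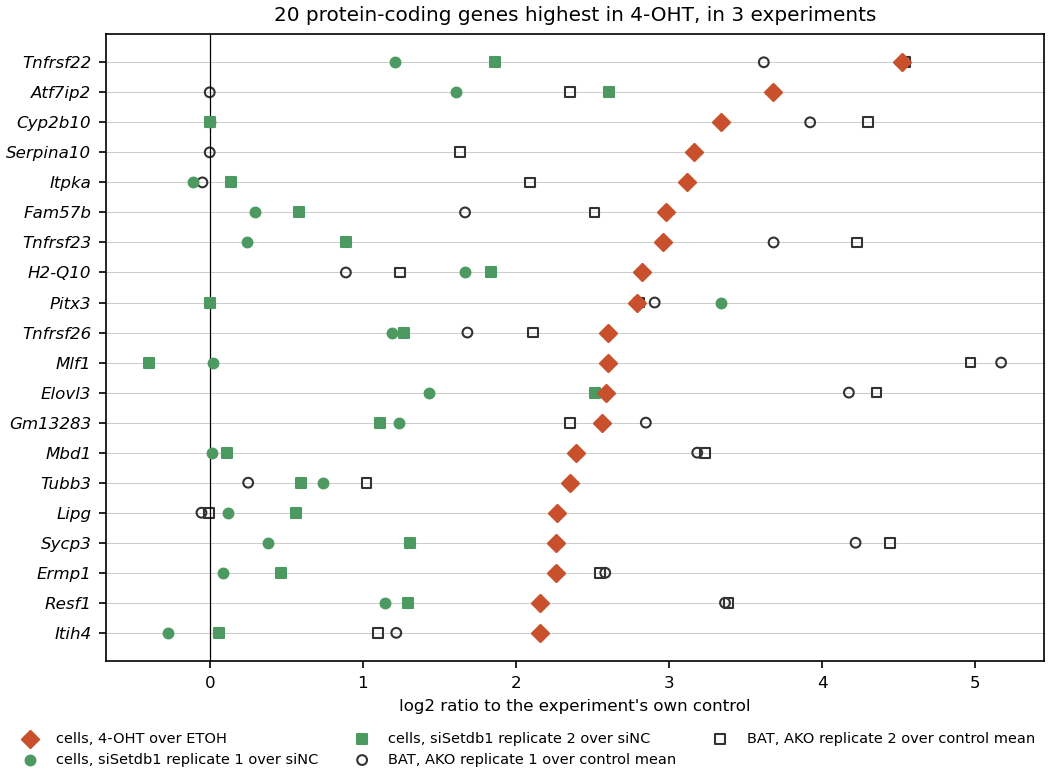
Log2 ratio to the experiment's own control (x axis) for the 20 protein-coding genes highest in 4-OHT: diamonds are 4-OHT over ETOH, filled green marks each siSetdb1 library over siNC, and open marks each Setdb1 AKO library over the mean of the controls (pseudocount 1). Mbd1 stands apart from 0 in 4-OHT and BAT while its siRNA marks lie near 0, and Serpina10 was not in the siRNA tables.

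For the lower genes these shares were smaller. Of 231, 126 were measured in siRNA cells and 16 were lower there, or 12.7%, against 2.45% of all genes. The count was 30 without siSetdb1 replicate 1. On the opposite side, 15 of the 126 were higher in siSetdb1, or 11.9%, against 3.15% of all genes. Their median log2 ratio in the siRNA cells was -0.04, so these genes had no common direction there. In BAT 142 were measured and 13 were lower, or 9.15%, near the 8.42% of all genes, and 21 without Setdb1 AKO replicate 2, while 35 were higher, or 24.6%, against 8.02%. Rflna and Ccl28 were the 2 lower in all experiments. Both passed the filter only through ETOH, as did 115 of the 231. Many of the lower genes were hardly read in the siRNA cells, with 105 of 231, or 45.5%, under 10 normalised counts in every library there, against 8.08% of all measured genes and 31 of the 179 higher ones. Of 22 inflammation genes measured in the siRNA cells, 7 were higher and 0 lower, against 3.15% and 2.45% of all genes. In BAT 9 of 26 were higher and 1 lower, against 8.02% and 8.42%. By the same rule, 0 of 14 macrophage markers were higher and 9 lower in the siRNA cells. In BAT 1 of 19 was higher and 1 lower. Macrophage markers summed to 1167 normalised counts in siNC and 598 and 613 in siSetdb1, and to between 4796 and 7223 in the BAT libraries. The part of these cells in the difference between experiments was not tested. Cxcl1 had 7.9 normalised counts in siNC and 16.2 and 20.4 in siSetdb1, and 134 and 478 in control BAT against 402 and 957 in Setdb1 AKO, where the groups overlap.

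RefSeq promoter sequences (GRCm38.p6, 250 bases before to 50 bases after the start) matched 9592 of 12249 measured protein-coding genes, 91 of 129 higher and 127 of 178 lower ones. The median number of CpG pairs in these 300 bases was 21 over all matched genes, 13 over the higher and 9 over the lower genes. At least 10 CpG pairs were present in 83.7% of all, 58.2% of higher and 48.8% of lower genes. Other higher genes held more CpG pairs than the examples below, with 17 in Atf7ip2, 19 in H2-Q10, 20 in Pitx3, 24 in Mlf1 and 33 in Itpka. Methylation of these pairs was not measured. Promoters of 3 higher genes are shown as examples. They come from the Tnfrsf cluster, a silencing partner and a meiotic gene, and CG pairs are in capitals.
Tnfrsf23: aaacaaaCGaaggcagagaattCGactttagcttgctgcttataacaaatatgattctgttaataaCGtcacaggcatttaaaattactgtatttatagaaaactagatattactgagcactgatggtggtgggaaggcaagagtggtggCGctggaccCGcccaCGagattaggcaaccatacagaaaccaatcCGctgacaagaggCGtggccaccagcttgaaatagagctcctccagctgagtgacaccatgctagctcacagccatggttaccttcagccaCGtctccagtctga
Resf1: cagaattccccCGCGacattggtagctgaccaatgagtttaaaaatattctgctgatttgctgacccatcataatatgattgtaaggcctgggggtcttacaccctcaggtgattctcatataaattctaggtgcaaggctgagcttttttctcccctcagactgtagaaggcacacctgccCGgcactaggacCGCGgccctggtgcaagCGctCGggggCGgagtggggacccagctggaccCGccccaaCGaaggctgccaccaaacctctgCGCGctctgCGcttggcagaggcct
Sycp3: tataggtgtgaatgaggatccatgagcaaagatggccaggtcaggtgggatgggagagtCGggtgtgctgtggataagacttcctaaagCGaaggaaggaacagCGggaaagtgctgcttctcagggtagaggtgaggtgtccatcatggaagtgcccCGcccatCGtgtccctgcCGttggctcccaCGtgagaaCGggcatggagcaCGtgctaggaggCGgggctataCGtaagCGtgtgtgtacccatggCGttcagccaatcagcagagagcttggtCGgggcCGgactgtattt
They lie at chr7:143685826-143686125 on the minus strand, chr6:149309164-149309463 on the plus strand and chr10:88459337-88459636 on the plus strand, and hold 9, 13 and 15 CpG pairs. The E-box CACGTG, searched on both strands, occurs 2 times in the Sycp3 window and 0 times in the others. It was present in 9 of the 91 higher promoters, or 9.89%, and in 10.3% of all. Its longer form TCACGTGA, which is contained in no other motif searched but holds the E-box, was present in 3.30% of higher and 1.92% of all, the E2F site TTCCCGCC in 3.30% and 4.22%, and TATAAA in 9.89% and 6.73%.

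For the lower genes the NF-kB motif, GGGA followed by any base and TTTCC, was added after the values were seen and searched on both strands. It was present in 7 of 127 lower promoters, or 5.51%, in 0 of 91 higher ones and in 38 of 9592 in all, or 0.396%. The 7 genes were Cxcl1, Cxcl2, Cxcl3, Il6, Gbp5, Ms4a4a and Clca3a2. The windows of Tnfaip3 and Pck1, which were also lower, held 0 matches. The promoters of Cxcl1, Cxcl2 and Il6 from the inflammation list are shown because they hold the motif, so they do not stand for the whole list. The motif is in capitals.
Cxcl1: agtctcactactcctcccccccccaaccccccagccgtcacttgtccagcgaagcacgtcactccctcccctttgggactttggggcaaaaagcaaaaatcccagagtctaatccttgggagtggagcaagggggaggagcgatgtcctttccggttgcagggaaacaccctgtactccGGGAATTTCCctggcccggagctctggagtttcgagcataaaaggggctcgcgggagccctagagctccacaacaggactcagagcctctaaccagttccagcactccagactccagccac
Cxcl2: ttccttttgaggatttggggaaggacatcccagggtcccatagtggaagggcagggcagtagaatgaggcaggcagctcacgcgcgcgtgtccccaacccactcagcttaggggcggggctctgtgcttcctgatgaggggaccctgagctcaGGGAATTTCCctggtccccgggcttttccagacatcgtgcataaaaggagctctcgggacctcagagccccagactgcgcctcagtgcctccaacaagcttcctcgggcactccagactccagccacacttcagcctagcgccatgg
Il6: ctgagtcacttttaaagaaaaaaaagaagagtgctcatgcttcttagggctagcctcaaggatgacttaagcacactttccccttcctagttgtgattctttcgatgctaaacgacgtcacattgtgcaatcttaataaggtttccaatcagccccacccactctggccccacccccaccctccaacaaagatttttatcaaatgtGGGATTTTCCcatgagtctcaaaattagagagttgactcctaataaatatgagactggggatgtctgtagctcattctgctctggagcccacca
They lie on the plus strand at chr5:90890995-90891294, chr5:90903649-90903948 and chr5:30012864-30013163. The motif begins 71 bases before the RefSeq start in Cxcl1, 97 in Cxcl2 and 44 in Il6. A match describes the letters only and shows no binding. TATAAA was present in 15.7% of lower and 6.73% of all promoters.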

How the data were processed

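RNA of the cells was poly(A)-selected and read in pairs, and the submitters' processing notes list featureCounts 2.0.3, Trimmomatic 0.39, DESeq2 1.36.0, STAR 2.7.10a and the build GRCm38, without roles. The annotation release, strand setting and handling of reads with several matches are not given in the sources used here. For 4-OHT and ETOH the authors deposited unscaled counts, scaled counts and FPKM, a level per gene length and depth, per the file headers. The deposited siRNA and BAT tables hold a normalised signal per gene, that is a count scaled by the authors to each library, and values were compared only within an experiment. The siRNA tables were joined through siNC, with a factor of 1.0024, and genes absent from 1 of them were set to 0 there. Unused columns of per-sample values numbered 0.

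Log2 ratios were computed from the raw counts with edgeR 4.0.16 (R 4.3.3) after TMM scaling, with a prior count of 2. Intervals are exact conditional binomial at 95% (scipy 1.17.1) and cover counting error only. A gene was called past 2-fold on the log2 ratio, and a count of 0 was set to a floor of 3 for a fold. The ratio step was tested on simulated data. Near-copies of a gene were measured as the share of its 31-base words found in other genes of GENCODE M21, and 97.4% of 26624 identifiers had the same coordinates there. In all, 23 symbols that a spreadsheet had changed to dates were looked up by identifier.

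Genes named by rule were Setdb1, the 20 protein-coding genes with the highest and the 20 with the lowest ratio, 6 noncoding transcripts each way, the 10 largest gains and losses in CPM, the members of each of 46 lists that were past 2-fold and its 4 with the highest mean FPKM, runs of neighbours, and the 10 protein-coding genes past 2-fold with both siSetdb1 libraries. Further list members were added as examples after their values were seen. Members and lists were chosen with earlier results of these data known. Alternatives were other scalings, prior counts, count filters and fold limits, and leaving out each siRNA or BAT replicate. Some genes named by rule are not reported here.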

Additional observations from a re-analysis of the deposited data

Results flagged for a closer look

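Among the genes named by rule, the following were past 2-fold in 4-OHT and lay on the opposite side in both siSetdb1 libraries or in both Setdb1 AKO libraries, by at least 2-fold in each siSetdb1 library or between the BAT means. They are not a full list. At 1.5-fold, 8 of 141 higher genes lay on the opposite side in BAT, or 5.67%, against 8.42% of all genes. Of the lower genes 35 of 142 did, or 24.6%, against 8.02%. In the siRNA cells 10 of 148 higher genes did, or 6.76%, against 2.45%. There 15 of 126 lower genes did, or 11.9%, against 3.15%. The difference between experiments was not tested in any of them, and with 1 library per treatment the 4-OHT side has no replicate.

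Chemokines and cytokines among them were lower in 4-OHT and higher in Setdb1 AKO BAT. The log2 ratio in 4-OHT was -1.86 for Ccl11, -1.19 for Ccl2, -1.05 for Ccl7, -1.66 for Cxcl2, -1.91 for Cxcl5, -2.23 for Il1b and -2.39 for Il33. Ccl2 had 119 and 329 normalised counts in control BAT and 462 and 852 in Setdb1 AKO, and Ccl11 had 379 and 297 against 714 and 831. Cxcl5 was also higher in both siSetdb1 libraries, with 13.2 and 20.4 normalised counts against 1.0 in siNC. Il33 had 15.6 and 17.2 in control BAT against 37.0 and 169 in Setdb1 AKO.

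Other named genes lower in 4-OHT and higher in Setdb1 AKO BAT were the receptor gene Lyve1 at -2.01, the matrix gene Thbs4 at -1.82, Olfml1 at -1.44, Gm44126 at -1.16, the imprinted H19 at -1.11 and mt-Atp6 at -2.21. H19 had 11.9 and 8.1 normalised counts in control BAT and 54.5 and 49.5 in Setdb1 AKO. In the siRNA cells, Entpd4b (-4.05 in 4-OHT) had 19.7 in siNC against 74.0 and 287 in siSetdb1, and Gm10241 (-1.92 in 4-OHT) had 247 against 498 and 650. All 31-base words of both occur in other genes.

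Named genes higher in 4-OHT and lower in Setdb1 AKO BAT were Gt(ROSA)26Sor at 4.08, Zdbf2 at 1.02 and Zfp882 at 1.07. Gt(ROSA)26Sor had 647 and 335 normalised counts in control BAT and 14.4 and 5.2 in Setdb1 AKO. Zdbf2 had 204 and 137 against 71.0 and 60.9.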

How the results depend on the processing

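The number of genes past 2-fold depended on the count filter and the fold. Higher genes numbered 321 with at least 20 counts, 1893 with no filter, 588 at 1.5-fold and 51 at 3-fold, and lower genes 454, 1630, 855 and 40, and 136 with at least 100 counts. Genes higher in 4-OHT and in siSetdb1 numbered 20 at 2-fold, and lower ones 7. Genes lower in 4-OHT and in Setdb1 AKO BAT numbered 6 at 2-fold. Leaving out 1 replicate in turn gave 41 to 45 higher and 23 to 30 lower genes shared with siSetdb1 (30 without siSetdb1 replicate 1, against 16), and 64 to 76 higher and 16 to 21 lower genes shared with Setdb1 AKO BAT (21 without Setdb1 AKO replicate 2, against 13). DESeq2 size factors shifted all log2 ratios by -0.0169 and total counts by -0.0634, so list medians closer to 0 than that, such as partners and interferon-stimulated genes, have no direction. The median of xenobiotic response genes was -0.11 and 0.02 with no filter, and that of clustered protocadherins -0.22 and 0.01 with at least 100 counts. The causes were not tested. Few counts limit ratios of genes under 100. No paired analysis was possible because each treatment has 1 library and no result comes from a test.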
